A study of Arabidopsis thaliana with 16 samples.

Results

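The interaction of abscisic acid (ABA) and glucose (Glc) was measured in germinating *Arabidopsis thaliana* seeds as a departure from additivity, gene by gene. For each gene the log2 effect of Glc in the presence of ABA (ABA + Glc minus ABA) was set against its effect without ABA (Glc minus control), and the difference is called the departure here. A negative departure means that seeds given ABA + Glc held less transcript than the sum of the 2 separate log2 effects, and a positive departure means that they held more. All 16 libraries of the series entered the measurement, and 17500 of the 27655 genes in the files exceeded 0.5 TPM in 50% or more of the libraries and were tested. All seeds carried the T-DNA allele *sweet1* in the Col-0 background, and the controls carried it too. Seeds were kept for 3 d at 4°C, grown on plates under constant light at 22°C, and moved at 24 h after imbibition to liquid medium for 6 h. The medium held 5 µM ABA with 60 mM Glc (ABA + Glc), 5 µM ABA (ABA), 60 mM Glc (Glc) or no addition (control), with 4 biological replicates each of whole seeds at 30 h after imbibition. Only 1 insertion line, 1 dose of each agent and 1 time were sampled, and WT seeds were not analysed here, so the departures describe *sweet1* seeds and cannot be assigned to the mutation.

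ABA holds seeds in arrest. It is bound by PYR/PYL receptors, which then inhibit clade A protein phosphatases 2C, and the released SnRK2 kinases act through bZIP factors such as ABI5 on genes of late embryogenesis abundant (LEA) proteins, storage proteins and oil body proteins. Glc feeds the embryo and is also a signal that lowers the activity of SnRK1, a kinase of low energy, and at low doses it can relieve the block of germination by ABA. SWEET1 transports sugars across membranes, and the study asked which transporter carries Glc under ABA and how Glc counters ABA. The design has both agents alone and together, so the Glc effect can be read on each ABA background.

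The deposited TPM values summed to between 951008 and 1053766 per library. The sums were 1003493 to 1030227 with ABA + Glc and 1001029 to 1053766 with ABA. They were 951008 to 984279 with Glc and 975845 to 1012836 in the control, so every Glc sum lay below every sum with ABA. Correlations of log2 values between replicates were 0.981 to 0.993. ABA + Glc replicate 3 stood apart from the other 15 libraries, with a score of -42.9 on the second principal component (9.17% of the variance), against -10.8 to 12.3 in the others. Its summed level of heat shock genes was 611 TPM, against 304 to 490 TPM in the other libraries, and its weight in a fit with a weight per library was 0.160, against 0.704 to 2.23. ABA replicate 3 had the highest score (12.3) and, after ABA + Glc replicate 3, the lowest weight (0.704). The results are over 16 libraries. Calls of named genes that were lost or gained over 14 libraries (without replicate 3 of ABA and of ABA + Glc) are given beside the genes concerned. *SWEET1* itself held 14.9, 11.5, 8.29 and 11.2 TPM in ABA + Glc replicates 1 to 4, against 14.4, 12.98, 16.9 and 17.1 TPM with ABA, 12.4, 13.6, 14.5 and 17.6 TPM with Glc and 11.1, 12.97, 13.3 and 10.8 TPM in the control. A single value per gene cannot tell transcript before the T-DNA from transcript after it, so the genotype was not checked by these levels. The line is described by the study as a null mutant without detected transcript, while the files list *SWEET1* transcript in every library, and the libraries are *sweet1* by their labels. The departure of *SWEET1* was -0.68 (adjusted p = 0.0868) and so was not called, though it passed without ABA + Glc replicate 1 (adjusted p = 0.0254). In whole seeds, fewer cells of a type and less RNA per cell cannot be told apart. Of 6 endosperm markers, 3 were tested (*EPR1*, *EXPA2* and *MAN7*). The summed level of all 6 was 1593 to 1787 TPM with ABA + Glc, 1365 to 1621 TPM with ABA, 1579 to 1668 TPM with Glc and 1289 to 1589 TPM in the control. Most of this sum was *EXPA2*, with group means of 1280 to 1420 TPM, and *EPR1* ranged from 127 to 389 TPM over all libraries. *MAN7* averaged 55 TPM with ABA + Glc, 48.7 TPM with ABA, 29 TPM with Glc and 16.9 TPM in the control. The summed embryo markers ranged from 371 to 485 TPM over all libraries, with 482 TPM in ABA + Glc replicate 3 and 371 to 399 TPM in the other ABA + Glc libraries, and the seed coat genes *BAN*, *TT10*, *MYB5* and *TT2* were listed at 0 in every library.

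A departure was called for 521 genes, 230 higher and 291 lower than the sum of the separate effects (limma, Benjamini-Hochberg adjusted p under 0.05, at least 0.289 on the log2 scale, which is 1.22-fold). These are 1.31% (higher) and 1.66% (lower) of the genes tested. Over 14 libraries 313 genes (1.79%) were higher and 340 (1.94%) were lower. Of the 230 and 291 genes, 193 and 250 were called again over 14 libraries, which is 83.9% and 85.9% of the lists over 16 libraries and 61.7% and 73.5% of the lists over 14. Leaving out each library in turn, 137 of the 230 and 190 of the 291 were called every time. The median departure of all genes tested was 0.00, with quartiles of -0.13 and 0.15.

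Most called genes responded to ABA alone, and with both agents their change from the control was smaller than the sum. Of the 291 genes called lower, 280 were also called higher with ABA alone, with a median ABA effect of 1.55, where 9.97% of all genes tested were called higher with ABA. Their median level was 34.3 TPM with ABA + Glc, 45.8 TPM with ABA, 17 TPM with Glc and 13.9 TPM in the control. Of the 230 genes called higher, 202 were called lower with ABA alone, against 12.8% of all genes tested, with a median ABA effect of -0.71. The median levels were 23.5, 20, 29 and 37.6 TPM in ABA + Glc, ABA, Glc and control seeds. In 495 of the 521 genes the ABA + Glc effect had the sign of the sum but a smaller size, in 25 it had the opposite sign, and in 1, *NSP5* (a nitrile specifier protein), it was larger than the sum. The separate effects and the departure share the same libraries, so a high or low control or ABA mean moves both, and these shares are a description only. Among the called genes, the one farthest from additivity, *AT4G08876*, had a departure of -3.52 (adjusted p = 0.0129). It was chosen after its values were seen, and lay below 10 TPM in every group. Over all genes tested the departures ran from -3.52 to 3.92, and the highest that was called was 1.415.

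**Figure D1:**
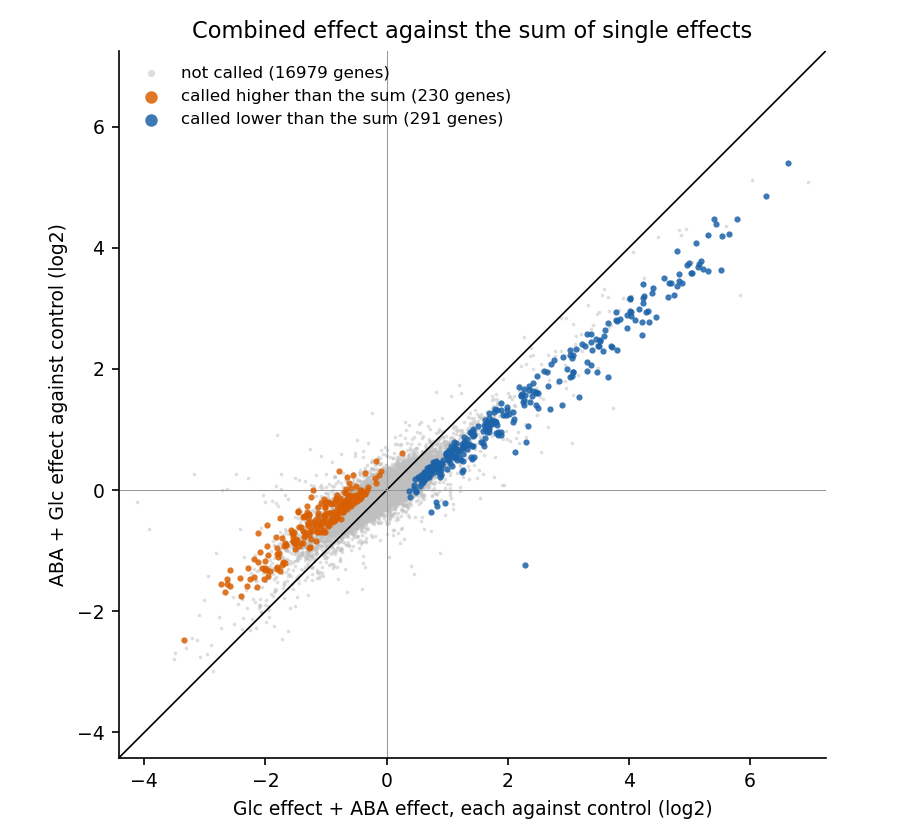
The ABA + Glc effect against control (vertical axis, log2) is plotted against the sum of the Glc effect and the ABA effect (horizontal axis, log2) for the 17500 genes tested, with the line of equality. The 291 genes called lower (blue) lie below the line where the sum is above 0, and the 230 called higher (orange) lie above it where the sum is, except for *NSP5*, below 0.

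Glc effects measured without ABA and with ABA use separate libraries, and most genes called on 1 background were not called on the other. Without ABA, Glc raised 134 genes (0.766% of those tested) and lowered 356 (2.03%). With ABA, it raised 166 (0.949%) and lowered 374 (2.14%). The genes raised on both backgrounds numbered 15, which is 11.2% of the list without ABA and 9.04% of the list with ABA, and those lowered on both numbered 47 (13.2% and 12.6%). A call on 1 background only is not itself a difference between the backgrounds. The departure was called for 33 of 74 genes raised only without ABA and 85 of 304 lowered only without ABA. It was called for 63 of 146 genes raised only with ABA and 142 of 282 lowered only with ABA. A further 45 genes were raised by Glc without ABA and lowered by Glc with ABA, which is 33.6% and 12% of the lists, and 5 genes turned the other way (1.40% and 3.01%). All 50 of these genes were among those called for the departure. That follows largely from how they were picked, since the departure is the difference between their 2 opposite Glc effects. The 45 include genes of LEA proteins (*LEA4-5*, *LEA7*, *LEA18*, *LEA29*, *LEA30* and *ECP63*), the ferritin *FER2*, the tocopherol cyclase *VTE1*, the vacuolar antiporter *NHX4*, the zinc finger genes *TZF5* and *SOM*, the phytocystatin *CYS2* and the sucrose phosphate synthase *SPS3*. The 5 are *PYL6* (an ABA receptor), *AT2G43140* (a bHLH factor), *ARL* (a regulator of organ size), and the F-box genes *AT2G32560* and *AT3G23880*.

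**Figure D2:**
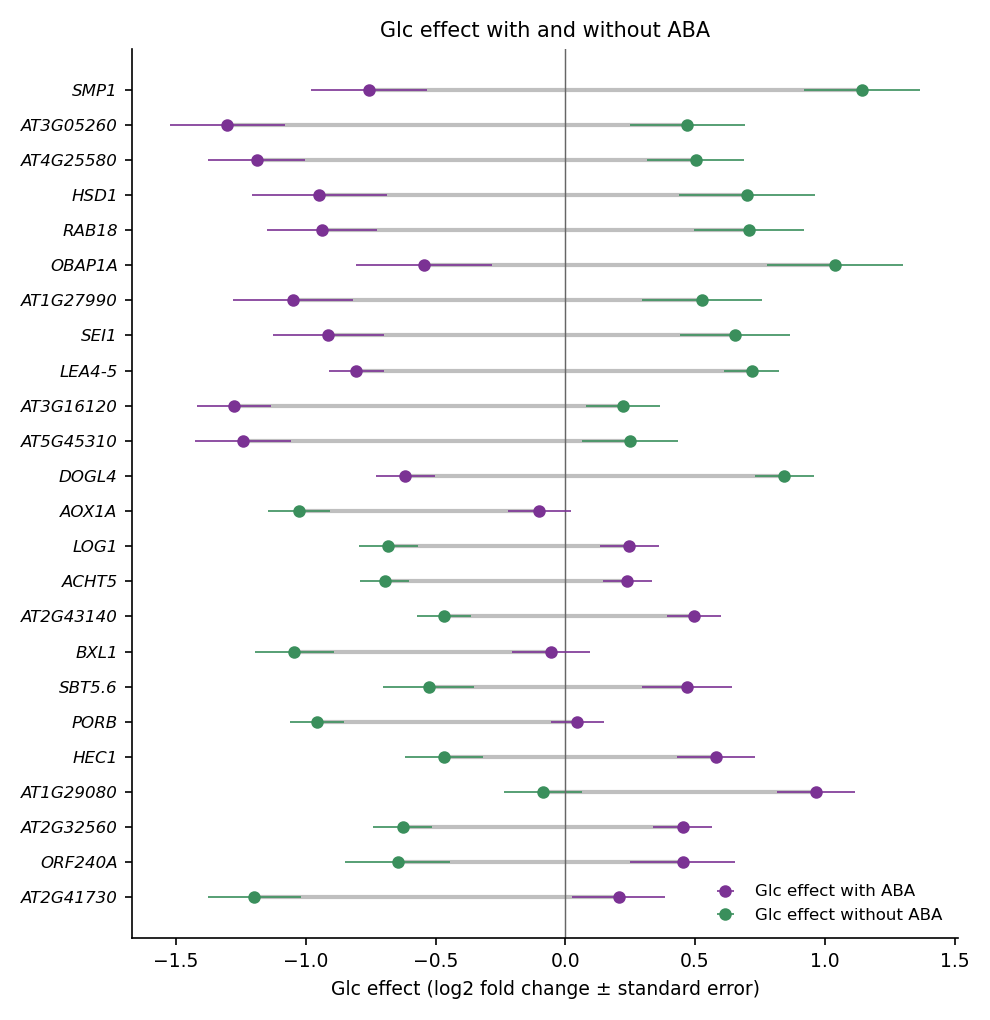
The Glc effect with ABA (ABA + Glc minus ABA, purple) and without ABA (Glc minus control, green) is plotted on the log2 scale with standard errors for the 12 genes with the lowest and the 12 with the highest called departure among genes reaching 10 TPM in a group, from n = 4 libraries per group. The lowest 12 lie above 0 without ABA and below 0 with ABA, and in the highest 12 the effect without ABA lies below 0.

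LEA and desiccation genes had the lowest median departure of the 26 lists. Counts called in this and the other lists are to be read beside the shares of all genes tested, 1.31% higher and 1.66% lower. LEA proteins are hydrophilic proteins that accumulate as seeds dry and are thought to protect cell components from water loss. Of 26 genes on the list, all tested, 18 were lower than the sum and 0 were higher (17 and 0 over 14 libraries), and the median departure was -1.03, against 0.00 over all genes. The list's median Glc effect was -0.60 with ABA and 0.45 without ABA, and its median ABA effect was 3.53. *LEA4-5* (chromosome 5, 2089445 to 2090430) held 1747, 1948, 1876 and 1851 TPM with ABA + Glc, against 3388, 3014, 3185 and 3388 TPM with ABA. With Glc it held 323, 401, 301 and 291 TPM, against 215, 160.48, 236 and 189.82 TPM in the control. The Glc libraries lay above the control libraries and the ABA + Glc libraries lay below the ABA libraries, without overlap in either pair. The Glc effect on *LEA4-5* was -0.81 with ABA and 0.72 without ABA, and the departure was -1.52 ± 0.15 (standard error, 95% interval -1.84 to -1.21, adjusted p = 3.92e-05). Additive log2 effects would have given 5329 TPM with ABA + Glc. On untransformed TPM the mean with ABA + Glc was also below the sum, with a departure of -1517 ± 104 TPM (standard error).

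*LEA30* (chromosome 3, 5999174 to 6000447) held 1421, 1498, 1728 and 1337 TPM with ABA + Glc, against 2515, 2299, 2379 and 2284 TPM with ABA. It held 218, 262, 204 and 208 TPM with Glc, against 142, 106, 156 and 146 TPM in the control. As for *LEA4-5*, neither pair of groups overlapped, and the 2 Glc effects had opposite signs, -0.67 with ABA and 0.70 without, for a departure of -1.37 ± 0.15 (adjusted p = 7.54e-05). *RAB18* (chromosome 5, 26518277 to 26519447), a dehydrin used as a marker of the ABA response, held 594, 629.97, 721 and 578 TPM with ABA + Glc, against 1246, 1259, 1111 and 1208 TPM with ABA. Its level was 210.25, 197, 188 and 117 TPM with Glc, against 105, 69.7, 180.04 and 95.9 TPM in the control. The Glc and control libraries of *RAB18* overlapped and the Glc effect without ABA did not pass (0.71, adjusted p = 0.0773), whereas with ABA it was -0.94 (adjusted p = 0.017). Its departure was -1.65 ± 0.30 (adjusted p = 0.00423). The group 1 LEA gene *EM1* (-1.40), *LEA29* (-1.42), *ECP63* (-1.24), *LEA7* (-1.15), *LEA18* (-0.93), the dehydrin *XERO1* (-1.06), and *LTI78* (-1.23) and *LTI65* (-1.04), known as RD29A and RD29B, were called in every fit that left out a library. *LTI78* and *LTI65* had Glc effects near 0 without ABA (0.22 and 0.06) and about -1 with ABA (-1.01 and -0.98). *LTI78* averaged only 0.798 TPM with Glc and 0.622 TPM in the control, near the 0.5 TPM filter. Its Glc effect without ABA is therefore poorly measured. The calls of *LEA14* and *EM6* were less firm, since *LEA14* was lost when any 1 of 10 libraries was left out and over 14 libraries (adjusted p = 0.0603), and *EM6* when any 1 of 12 was (adjusted p up to 0.0774). The dehydrins *ERD10* and *COR47* departed by 0.33 and 0.36 and did not pass.

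Promoter sequence is shown for 3 genes that ABA raised and that departed below the sum, and for 2 other called genes. The 250 bases before the annotated gene start are given below for *LEA4-5* (chr5:2090431-2090680, minus strand), *LEA30* (chr3:6000448-6000697, minus strand) and *TZF5* (chr5:17831337-17831586, minus strand), which departed below the sum with ABA raising them, *GPT2* (chr1:22824164-22824413, plus strand), which departed below the sum with ABA lowering it, and *DIN10* (chr5:6833314-6833563, plus strand), which departed above it. This choice followed a view of the values. Sequences are from RefSeq build TAIR10.1, 5′ to 3′ on the strand of the gene. Capitals mark ACGTG, the core of the ABA response element, and TATCCA, an element found in sugar-repressed genes, on either strand. The G-box CACGTG holds ACGTG on both strands and so shows as 6 capitals.
*LEA4-5*: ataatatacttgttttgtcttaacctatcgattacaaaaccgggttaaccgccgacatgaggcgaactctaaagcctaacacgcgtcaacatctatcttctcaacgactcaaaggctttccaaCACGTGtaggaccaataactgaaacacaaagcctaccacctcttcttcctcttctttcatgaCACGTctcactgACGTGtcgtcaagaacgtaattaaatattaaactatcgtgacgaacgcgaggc
*LEA30*: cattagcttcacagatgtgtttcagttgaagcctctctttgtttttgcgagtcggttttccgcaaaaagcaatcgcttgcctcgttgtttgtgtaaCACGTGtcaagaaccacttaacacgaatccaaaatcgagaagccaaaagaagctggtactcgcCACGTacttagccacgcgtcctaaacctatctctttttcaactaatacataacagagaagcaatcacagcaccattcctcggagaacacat
*TZF5*: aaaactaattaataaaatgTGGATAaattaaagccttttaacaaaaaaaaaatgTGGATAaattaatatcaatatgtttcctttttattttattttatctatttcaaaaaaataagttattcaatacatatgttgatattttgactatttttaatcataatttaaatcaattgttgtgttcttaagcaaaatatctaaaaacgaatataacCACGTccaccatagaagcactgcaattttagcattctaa
*GPT2*: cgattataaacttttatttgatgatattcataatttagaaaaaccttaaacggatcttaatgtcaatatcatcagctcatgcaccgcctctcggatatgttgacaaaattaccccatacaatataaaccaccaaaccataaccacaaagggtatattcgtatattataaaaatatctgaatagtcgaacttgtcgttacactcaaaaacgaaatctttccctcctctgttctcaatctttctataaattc
*DIN10*: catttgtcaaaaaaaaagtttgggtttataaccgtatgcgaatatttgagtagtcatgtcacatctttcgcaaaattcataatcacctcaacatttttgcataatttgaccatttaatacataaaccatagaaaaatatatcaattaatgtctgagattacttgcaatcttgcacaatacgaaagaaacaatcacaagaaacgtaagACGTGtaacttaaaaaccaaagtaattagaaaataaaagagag
The windows of *LEA4-5* and *LEA30* hold ACGTG 4 and 3 times, counting both strands, and each has 1 G-box. That of *TZF5* holds ACGTG 1 time and TATCCA 2 times, that of *DIN10* holds ACGTG 1 time, and that of *GPT2* has none of the motifs. The window of *EXPA1*, which departed above the sum, was also read, is not shown, and has none of the motifs. Among 17338 tested genes with a window on a nuclear chromosome, ACGTG was present in 23.4%, CACGTG in 7.80% and TATCCA in 14.1%. Among the 291 genes called lower the shares were 55.3%, 34.4% and 21.6%, and among 227 of the genes called higher they were 29.1%, 10.6% and 20.3%. Of the 291 genes called lower, 280 were also called higher with ABA alone. The shares among all genes raised by ABA were not counted, so the motif shares cannot be tied to the departure. These shares are a description without a test, and a match is not a bound site.

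Of 16 genes of storage proteins and oleosins, the proteins that coat oil bodies, 5 were lower than the sum and 0 higher (4 and 0 over 14 libraries), with a median departure of -0.45. The 12S globulin gene *CRA1* (chromosome 5, 17756238 to 17758336) held 1234, 1333, 1001 and 1266 TPM with ABA + Glc, against 1521, 1819, 1609 and 1553 TPM with ABA. It held 233, 259, 256 and 200.02 TPM with Glc, against 133, 141, 212 and 139 TPM in the control. The highest ABA + Glc library lay below the lowest ABA library, and control replicate 3 lay among the Glc libraries. The departure of *CRA1* was -1.05 ± 0.18 (adjusted p = 0.00285), and those of the oleosin genes *OLEO2* and *OLEO5* were -1.03 and -1.09. *OLEO3* (-0.72) did not pass when any 1 of 12 libraries was left out or over 14 libraries (adjusted p = 0.0712). The oil body steroleosin gene *HSD1* departed by -1.65, but it has a near-identical copy, so its reads may be split between the copies. Genes of the 2S albumins *SESA1* to *SESA5* departed by -0.49 to 0.26, and none passed.

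*TZF5* (chromosome 5, 17829618 to 17831336), a tandem CCCH zinc finger gene, had the lowest adjusted p of the genes named. It held 60.2, 69.4, 64.7 and 58.1 TPM with ABA + Glc, against 107, 99.6, 108 and 102 TPM with ABA. With Glc it held 18.1, 22.1, 19.6 and 19.1 TPM, against 13.7, 13.2, 14.6 and 14.99 TPM in the control. Neither pair overlapped, and the Glc effect was -0.72 with ABA and 0.47 without, for a departure of -1.19 ± 0.10 (adjusted p = 1.18e-05). *SOM*, a CCCH zinc finger gene whose product represses light-dependent germination, held 340.33, 358, 293 and 333 TPM with ABA + Glc, against 444, 431, 426 and 422 TPM with ABA. It held 203, 217, 198 and 200.22 TPM with Glc, against 159, 154, 169.85 and 176 TPM in the control. All Glc libraries of *SOM* exceeded all control libraries, all ABA + Glc libraries were below all ABA libraries, and the departure was -0.69 ± 0.08 (adjusted p = 0.000169). The phytocystatin gene *CYS2* (-1.17, adjusted p = 3.22e-05) and *DOGL4* (-1.46, adjusted p = 7.54e-05), a relative of the dormancy gene *DOG1*, had the same 2 signs. The genes *TZF5*, *SOM* and *CYS2* were picked with their values known. The lowest departure among the genes reaching 10 TPM belonged to the seed maturation gene *SMP1*, -1.90 ± 0.32 (adjusted p = 0.00215), with 87.2, 98.3, 148 and 80.9 TPM with ABA + Glc, against 179.95, 156, 165 and 182 TPM with ABA. With Glc it held 19.4, 19.1, 18.2 and 14.3 TPM, against 4.42, 8.02, 12.9 and 7.52 TPM in the control. The other genes of this set include *AT3G05260* (-1.77), *AT4G25580* (-1.69), *OBAP1A* (-1.58), an oil body protein gene, *AT1G27990* (-1.58) and *SEI1* (-1.57), a seipin gene of oil body formation. *AT3G16120* (-1.50) and *AT5G45310* (-1.49) were also among the 12 lowest, as were *HSD1*, *RAB18*, *LEA4-5* and *DOGL4*. *OBAP1A* was no longer called when any 1 of 6 libraries was left out or over 14 libraries (adjusted p = 0.0545).

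**Figure D3:**
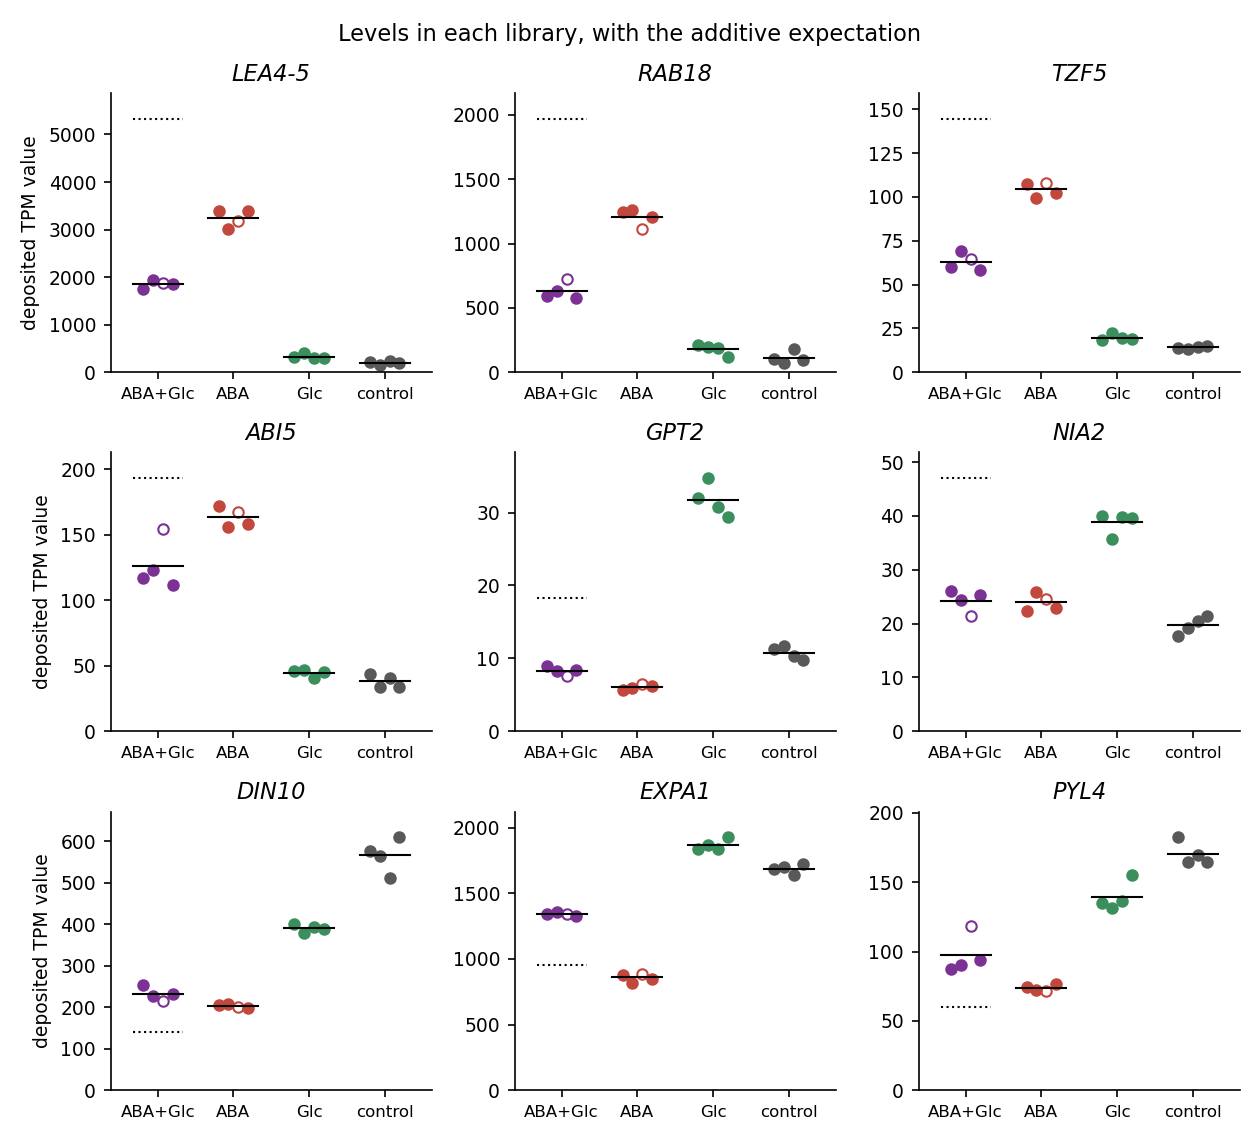
Deposited TPM values of 9 genes are shown by library for ABA + Glc, ABA, Glc and control seeds (n = 4 each), with replicate 3 of ABA + Glc and of ABA as open circles, group means as solid lines, and the level that additive log2 effects would give as a dotted line over ABA + Glc. The dotted line lies above the ABA + Glc libraries of *LEA4-5*, *RAB18*, *TZF5*, *ABI5*, *GPT2* and *NIA2*, and below those of *DIN10*, *EXPA1* and *PYL4*.

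Of 12 receptor genes tested, 3 were higher than the sum and 1 lower (4 and 1 over 14 libraries), with a median departure of 0.35. *PYL4* (chromosome 2, 16049918 to 16051356) held 87.5, 90.3, 118 and 94.1 TPM with ABA + Glc, against 74.2, 72.2, 71.2 and 76.5 TPM with ABA. It held 135, 132, 136 and 155 TPM with Glc, against 183, 164, 169 and 164 TPM in the control. Each ABA + Glc library exceeded each ABA library and each Glc library was below each control library, the reverse of the LEA genes. The departure of *PYL4* was 0.68 ± 0.11 (adjusted p = 0.00167). *PYR1* departed by 0.75 (adjusted p = 0.00838), but its ABA + Glc replicate 3 held 427 TPM, against 296 to 299.6 TPM in the other 3 libraries, and over 14 libraries the departure was 0.55 (adjusted p = 0.00172). *PYL6* departed by 0.77 (adjusted p = 0.00175). *PYL13* went the other way (-0.85), and this call was lost when any 1 of 8 libraries was left out (adjusted p up to 0.0715). The remaining members passed in neither direction, and *PYL1* departed by 0.87 (adjusted p = 0.12) and was called over 14 libraries.

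Of 8 clade A phosphatase genes tested, the negative regulators that the receptors inhibit, 5 were lower and 0 higher (4 and 0 over 14 libraries), with a median departure of -0.44. *HAI2* held 27.1, 26.6, 27.5 and 24.1 TPM with ABA + Glc, against 36.0, 32.1, 40.6 and 34.1 TPM with ABA. It held 8.35, 7.87, 8.51 and 7.75 TPM with Glc, against 7.64, 7.87, 7.41 and 8.19 TPM in the control, so that the Glc and control libraries overlapped while the ABA + Glc and ABA libraries did not. Its departure was -0.49 ± 0.10 (adjusted p = 0.0111), and that of *AHG1* was -0.81 (adjusted p = 0.00437), which did not pass on untransformed TPM. *HAB1* (-0.53) was lost without Glc replicate 1 (adjusted p = 0.0532), *PP2CA* (-0.40) when any 1 of 7 libraries was left out (adjusted p up to 0.0606), and *HAI3* (-0.64) when any 1 of 5 libraries was left out and over 14 (adjusted p = 0.0532). *ABI1*, *ABI2* and *HAB2* departed by 0.13, -0.20 and -0.06 and did not pass.

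Among 14 ABA-related transcription factor genes, 3 were lower and 1 higher (6 and 1 over 14 libraries), with a median departure of -0.22. *ABI5* (chromosome 2, 15204659 to 15207636), the bZIP factor of the germination block, held 117, 123, 154 and 112 TPM with ABA + Glc, against 172, 156, 167 and 158 TPM with ABA. Its level was 46.1, 46.7, 40.9 and 45.2 TPM with Glc, against 43.8, 33.8, 40.3 and 33.8 TPM in the control. The ABA + Glc libraries all lay below the ABA libraries, by the least in replicate 3, and the departure was -0.62 ± 0.14 (adjusted p = 0.0149), or -0.71 over 14 libraries. *ABI4*, an AP2 factor of ABA and sugar responses, departed upwards, 0.51 (adjusted p = 0.0193), and did not pass on untransformed TPM. *ABF4* (-0.44, adjusted p = 0.0429) lost its call when any 1 of 14 libraries was left out (adjusted p up to 0.0957), and the homeodomain gene *HB7* (-0.87) without ABA replicate 1 (adjusted p = 0.0529). *EEL*, a bZIP gene of late embryogenesis, departed by -0.16 (adjusted p = 0.623). The G-box factor genes *GBF1*, *GBF2* and *GBF3* departed by -0.26, -0.49 and -0.48 over 16 libraries, where none passed (adjusted p = 0.0587, 0.0529 and 0.0933). Over 14 libraries all of them passed, at -0.32, -0.64 and -0.59 (adjusted p = 0.00678, 0.000581 and 0.00883), and each also passed when only ABA + Glc replicate 3 was left out. Of 10 genes of ABA synthesis and breakdown, 2 of synthesis were lower. *ABA1*, which encodes zeaxanthin epoxidase, held 27.3, 28.1, 28.2 and 27.1 TPM with ABA + Glc, against 35.1, 34.7, 36.1 and 38.03 TPM with ABA, and its departure was -0.60 ± 0.08 (adjusted p = 0.00043). *NCED9*, a dioxygenase gene of seed ABA synthesis, departed by -0.97 (adjusted p = 0.0157) at levels of 1.25 to 6.58 TPM.

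Gibberellin opposes ABA in germination, and 3 of 16 of its genes departed (4 over 14 libraries). The gene called only over 14 libraries was *RGA*, called higher there, with a departure of 0.13 over 16 libraries (limma, adjusted p = 0.743). *GA3OX1* and *GA3OX2* encode the oxidases that make active gibberellin. *GA3OX1* held 6.94, 8.48, 9.11 and 8.08 TPM with ABA + Glc, against 5.88, 6.05, 6.94 and 5.64 TPM with ABA. It held 11.2, 12.9, 13.2 and 12.6 TPM with Glc, against 15.9, 14.4, 16.6 and 14.1 TPM in the control. The ABA + Glc libraries lay at or above the highest ABA level, with replicate 1 equal to ABA replicate 3 at 6.94 TPM, and the departure was 0.66 ± 0.13 (adjusted p = 0.00687). *GA3OX2* departed by 0.66 (adjusted p = 0.0169). *GA20OX3*, which acts a step earlier, went below the sum. It held 44.7, 46.2, 45.5 and 47.01 TPM with ABA + Glc, 42.1, 43.2, 44.9 and 49.5 TPM with ABA and 43.7, 48.2, 47.7 and 50.3 TPM with Glc, against 29.8, 29.04, 34.5 and 30.2 TPM in the control. Each agent alone and the 2 together brought *GA20OX3* to a similar level, with effects of 0.57 for ABA + Glc, 0.53 for ABA and 0.61 for Glc, and a departure of -0.58 ± 0.09 (adjusted p = 0.00121).

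Of 12 genes that sugar is known to induce, 4 were lower than the sum and 0 higher (3 and 0 over 14 libraries), with a median departure of -0.23. *GPT2* (chromosome 1, 22824414 to 22826902), a plastid glucose 6-phosphate translocator, held 8.98, 8.19, 7.59 and 8.37 TPM with ABA + Glc, against 5.58, 5.97, 6.48 and 6.23 TPM with ABA. The Glc libraries held 32.01, 34.8, 30.7 and 29.3 TPM, against 11.3, 11.7, 10.3 and 9.79 TPM in the control. Glc raised *GPT2* on both backgrounds, by 0.42 with ABA and 1.52 without, and ABA + Glc seeds remained below the control, and the departure was -1.10 ± 0.11 (adjusted p = 4.10e-05). The starch synthase gene *GBSS1* departed by -0.48 (adjusted p = 0.0127). The sucrose synthase genes *SUS1* (-1.02) and *SUS3* (-0.64) lost their calls when any 1 of 11 and of 12 libraries was left out (adjusted p up to 0.0959 and 0.11). Over 14 libraries *SUS1* was called and *SUS3* was not (-0.45, adjusted p = 0.0681).

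Nitrate reductase, the first enzyme of nitrate assimilation, departed downwards in both of its genes. *NIA2* (chromosome 1, 14158452 to 14161938) held 26.1, 24.4, 21.4 and 25.3 TPM with ABA + Glc, against 22.4, 25.8, 24.6 and 22.9 TPM with ABA. It held 40.05, 35.6, 39.8 and 39.7 TPM with Glc, against 17.8, 19.2, 20.4 and 21.4 TPM in the control. The ABA + Glc and ABA libraries overlapped, whereas every Glc library lay above every control library, and the Glc effect was 0.02 with ABA and 0.96 without. The departure of *NIA2* was -0.95 ± 0.10 (adjusted p = 7.54e-05), and that of *NIA1* was -0.66 ± 0.11 (adjusted p = 0.00206). *GLN2*, plastid glutamine synthetase, departed by -0.50 and lost its call when any 1 of 4 libraries was left out (adjusted p up to 0.061). *RFNR1*, a root-type ferredoxin reductase gene, was above the sum (0.34, adjusted p = 0.00568). In all, 3 of 14 nitrate genes were lower and 1 higher. *BT2*, a scaffold protein gene of sugar and nitrogen responses that was chosen after its values were seen, held 7.11, 6.19, 6.88 and 5.40 TPM with ABA + Glc, against 11.3, 9.80, 10.02 and 8.95 TPM with ABA. It held 11.3, 10.6, 9.68 and 12.2 TPM with Glc, against 8.07, 7.91, 7.91 and 6.99 TPM in the control. ABA and Glc each raised *BT2* alone, by 0.35 and 0.47, while with both the effect was -0.26 and did not pass, and the departure was -1.08 ± 0.14 (adjusted p = 0.000209).

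Trehalose 6-phosphate is a sugar signal that inhibits SnRK1. Of 14 genes of its synthesis and breakdown, 3 were lower and 0 higher (2 and 0 over 14 libraries), with a median departure of -0.14. The class II synthase genes *TPS6* and *TPS11* departed by -0.75 (adjusted p = 0.00525) and -0.65 (adjusted p = 0.00554). *TPS11* held 19.4, 17.9, 14.1 and 18.0 TPM with ABA + Glc, against 29.5, 28.3, 30.2 and 26.7 TPM with ABA, and 14.04, 13.2, 11.4 and 12.9 TPM with Glc, against 13.9, 13.2, 12.9 and 14.02 TPM in the control. The phosphatase gene *TPPF* (-1.15, adjusted p = 0.0192) lay at 0.04 to 3.09 TPM and did not pass the filter over 14 libraries. *SPS3*, a sucrose phosphate synthase gene chosen after its values were seen, departed by -1.10 (adjusted p = 0.000128).

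Of 14 genes that SnRK1 activates or that darkness induces, 5 were higher than the sum and 2 lower (4 and 2 over 14 libraries). *DIN6*, which encodes asparagine synthetase and serves as a SnRK1 marker, held 1.69, 1.64, 1.13 and 1.05 TPM with ABA + Glc, against 3.67, 3.65, 3.94 and 3.92 TPM with ABA. It held 0.920, 1.01, 0.870 and 0.550 TPM with Glc, against 0.620, 0.640, 0.780 and 0.320 TPM in the control. *DIN6* was low in every library, its Glc and control libraries overlapped, and its ABA + Glc libraries all lay below its ABA libraries, for a departure of -1.51 ± 0.23 (adjusted p = 0.00121). *DRM1*, a dormancy-associated gene, held 194, 202, 195 and 202 TPM with ABA + Glc, against 279.62, 295, 265 and 292 TPM with ABA. It held 97.4, 108, 104 and 112 TPM with Glc, against 109, 113, 109.83 and 91.3 TPM in the control. The Glc effect on *DRM1* was -0.51 with ABA and 0.00 without, and the departure was -0.51 ± 0.09 (adjusted p = 0.00325). *DRM2* departed by -0.84 and did not pass (adjusted p = 0.116), with groups of 6.77 ± 0.893 TPM (SD, n = 4) with ABA + Glc, 10.9 ± 1.59 TPM with ABA, 3.95 ± 0.402 TPM with Glc and 3.60 ± 1.56 TPM in the control. It passed without control replicate 3 (adjusted p = 0.00791), with a weight per library (adjusted p = 0.0496) and on untransformed TPM (adjusted p = 0.0433).

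*DIN10* (chromosome 5, 6833564 to 6836862), which encodes a raffinose synthase family protein, was among the 5 above the sum. It held 253, 227, 214 and 231 TPM with ABA + Glc, against 206, 207, 201 and 199 TPM with ABA. With Glc it held 400.17, 380.10, 392 and 388 TPM, against 577, 564, 512 and 611 TPM in the control. Glc and ABA each lowered *DIN10*, and with ABA the Glc effect was 0.18 where without ABA it was -0.53, for a departure of 0.72 ± 0.08 (adjusted p = 7.54e-05). *BZIP63*, a factor phosphorylated by SnRK1, departed by 0.59 (adjusted p = 0.00152), the Kelch F-box gene *KFB20* by 0.72 (adjusted p = 0.0122), and the galactosidase gene *BGAL4* by 1.18 (adjusted p = 0.0191) at 0.23 to 3.44 TPM. *KFB20* did not pass on untransformed TPM. *DIN2*, a glucosidase gene, departed by 0.88 and lost its call when any 1 of 5 libraries was left out and over 14 (adjusted p = 0.0578). Of 8 genes of the SnRK1 complex only *KING2*, taken here as AT1G69800, was called (-0.57, adjusted p = 0.0439), and it lost the call when any 1 of 11 libraries was left out (adjusted p up to 0.0987). The kinase subunit gene *KIN10* departed by -0.06 (95% interval -0.24 to 0.12) and *KING1* by -0.16 (-0.42 to 0.10).

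Of 17 sugar transporter genes 1 was higher and 1 lower (2 and 0 over 14 libraries), against 1.31% and 1.66% of all genes tested. *STP4*, a monosaccharide importer gene, held 27.1, 29.4, 24.7 and 27.5 TPM with ABA + Glc, against 29.8, 23.6, 29.8 and 28.4 TPM with ABA. It held 43.4, 43.9, 44.1 and 38.2 TPM with Glc, against 68.8, 58.9, 58.1 and 64.6 TPM in the control. Glc lowered *STP4* without ABA (-0.56), the ABA + Glc and ABA libraries overlapped (-0.04), and the departure was 0.52 ± 0.11 (adjusted p = 0.0157). *STP1* departed by 0.32 and *STP13* by -0.16, and the polyol transporter genes *PLT4* and *PLT5* by -0.07 and 0.21, none of which passed (adjusted p = 0.35, 0.679, 0.804 and 0.177). Glc lowered *STP13* on both backgrounds, with effects of -0.79 with ABA and -0.63 without. The vacuolar carrier gene *TST2* (-0.40) lost its call when any 1 of 13 libraries was left out (adjusted p up to 0.108). Over 14 libraries its departure of -0.29 (adjusted p = 0.0232) fell just short of the minimum size. *SUC1* departed by 0.24 over 16 libraries (limma, adjusted p = 0.291) and was called higher over 14 libraries.

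Expansins loosen the wall as the embryo elongates, and of 24 expansin and xyloglucan endotransglucosylase genes 4 were higher than the sum and 0 lower (5 and 0 over 14 libraries), with a median departure of 0.00. *EXPA1* (chromosome 1, 26141726 to 26143538) held 1340.34, 1359, 1345 and 1328 TPM with ABA + Glc, against 881, 815, 888 and 850.15 TPM with ABA. The Glc libraries held 1838, 1866, 1833 and 1929 TPM, against 1684, 1699.58, 1636 and 1723 TPM in the control. The replicates lay within a narrow range in every group, the ABA + Glc libraries lay between those of ABA and control, and the departure was 0.50 ± 0.06 (adjusted p = 0.00016). The Glc effect on *EXPA1* was 0.65 with ABA, where it passed, and 0.15 without. *EXPA8* departed by 0.62 ± 0.09 (adjusted p = 0.000994), with Glc effects of 0.60 with ABA and -0.01 without. *EXPA3* (0.31) and *XTH4* (0.41) lost their calls when any 1 of 7 and of 6 libraries was left out (adjusted p up to 0.0685 and 0.06). *EXPA3* was also not called with a replicate block, with equal sums, with no trend or on untransformed TPM. *EXPA10* departed by 0.28 over 16 libraries (limma, adjusted p = 0.115) and was called higher over 14 libraries.

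Among called genes reaching 10 TPM in a group, the 12 highest departures belonged to genes of varied roles, and ABA alone lowered all of them but *ORF240A*. *AT2G41730* departed by 1.40 ± 0.25 (adjusted p = 0.00409), with 5.74, 6.12, 11.4 and 8.67 TPM with ABA + Glc, against 6.73, 7.28, 6.65 and 5.86 TPM with ABA. It held 5.91, 4.56, 3.87 and 5.19 TPM with Glc, against 11.2, 13.1, 13.9 and 9.22 TPM in the control. All Glc and all ABA libraries lay below the lowest control library, and the ABA + Glc libraries overlapped those of both ABA and the control. *PORB*, protochlorophyllide oxidoreductase of chlorophyll synthesis, held 23.4, 21.9, 17.8 and 23.1 TPM with ABA + Glc, against 23.4, 19.5, 20.3 and 19.98 TPM with ABA. It held 35.5, 35.5, 32.2 and 30.3 TPM with Glc, against 73.1, 60.8, 54.6 and 73.8 TPM in the control, and the ABA + Glc and ABA libraries overlapped. *PORB* thus had a Glc effect of 0.05 with ABA and -0.96 without, and a departure of 1.00 ± 0.14 (adjusted p = 0.000655). The bHLH gene *HEC1* departed by 1.05, the cytokinin activation gene *LOG1* by 0.93 and the thioredoxin gene *ACHT5* by 0.94. In all of these, ABA + Glc replicate 3 was the highest library of its group, and over 14 libraries the departures were 0.87, 0.84 and 0.77, which passed. The xylosidase gene *BXL1* (0.99), the alternative oxidase gene *AOX1A* (0.93), the cysteine protease gene *AT1G29080* (1.05), the bHLH gene *AT2G43140* (0.96) and the F-box gene *AT2G32560* (1.08) passed in every fit that left out a library. *AT1G29080* did not pass on untransformed TPM. The subtilase gene *SBT5.6* (1.00) lost its call when any 1 of 8 libraries was left out (adjusted p up to 0.0812), and the mitochondrial *ORF240A* (1.10) when any 1 of 13 libraries was left out and over 14 (adjusted p = 0.0764). *FER1*, a ferritin gene chosen after its values were seen, departed downwards (-0.58 ± 0.07, adjusted p = 0.000226).

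**Figure D4:**
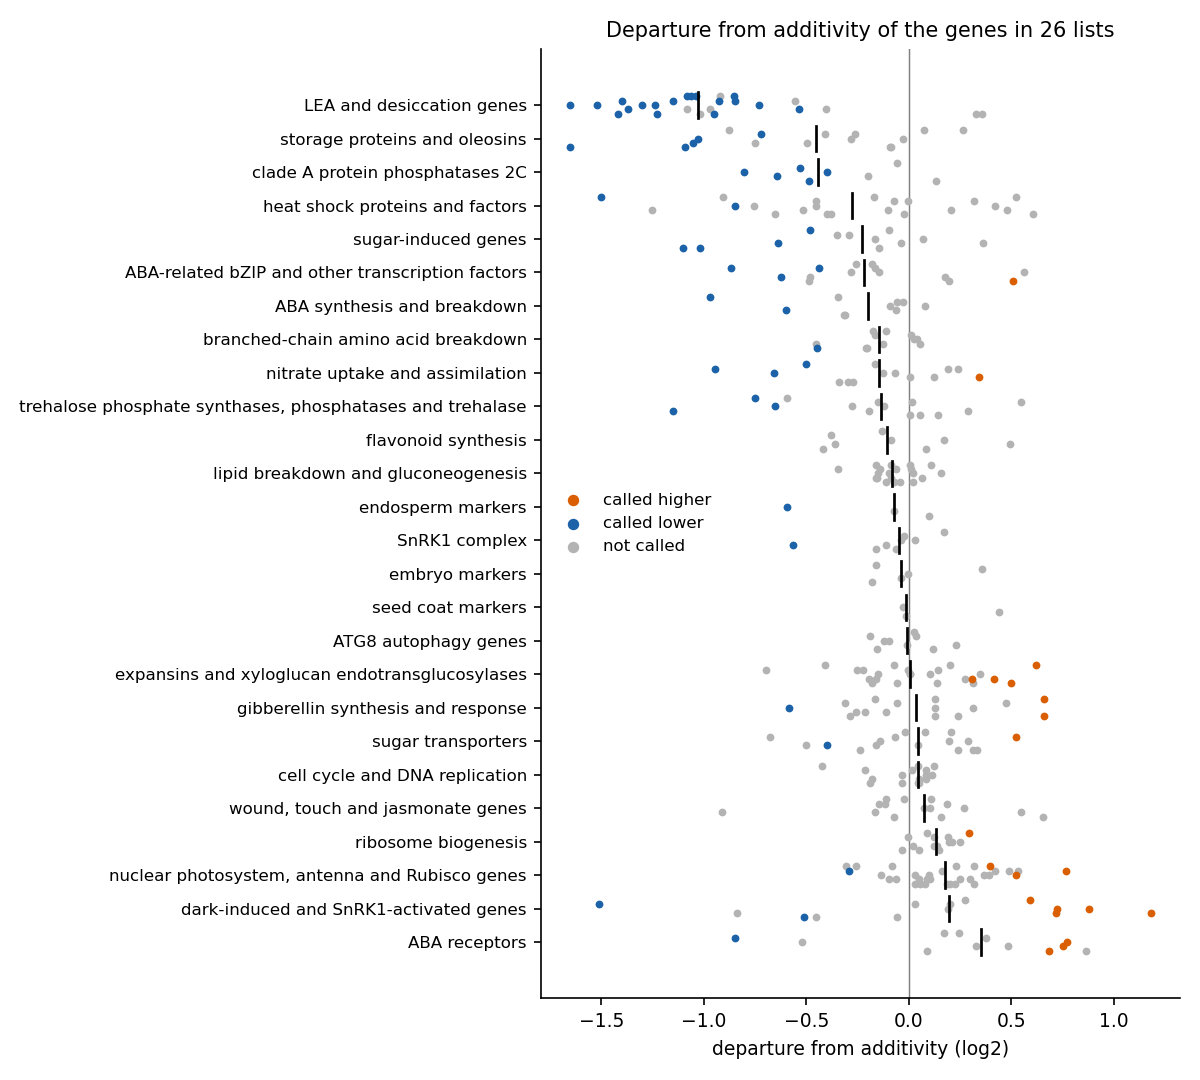
The departure (log2, horizontal axis) of each tested gene is plotted for the 26 gene lists, ordered by their medians (black bars), with genes called higher in orange, called lower in blue and not called in grey. The medians run from -1.03 for LEA and desiccation genes to 0.35 for ABA receptors.

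Of 32 nuclear photosystem, antenna and Rubisco genes 3 were higher and 1 lower (2 and 1 over 14 libraries), which is to be read beside the 1.31% and 1.66% of all genes tested. *RBCS-3B* of the Rubisco small subunit departed by 0.40 ± 0.06 (adjusted p = 0.000824), while *LHCA1* (0.76) lost its call when replicate 1 or 4 of the control, or replicate 4 of ABA, was left out (adjusted p up to 0.0528), *PSAD1* (0.52) when any 1 of 11 libraries was left out (adjusted p up to 0.102) and over 14 libraries (adjusted p = 0.0817), and *LHCB4.1* (-0.29) when any 1 of 13 libraries was left out (adjusted p up to 0.097). Small subunit genes have near-identical copies, so reads of *RBCS-3B* may be shared with them. Of 22 heat shock genes 2 were lower, *HSP101* (-1.50) and the galactinol synthase gene *GOLS1* (-0.85), and they lost their calls when any 1 of 10 and of 5 libraries was left out (adjusted p up to 0.0779 and 0.0543). The part of the high heat shock level in ABA + Glc replicate 3 in these results was not tested, and over 14 libraries the departures were -1.87 and -0.95. *HSP101* did not pass on untransformed TPM. The endosperm gene *MAN7*, a mannanase of endosperm weakening, was lower (-0.60, adjusted p = 0.00405) and did not pass on untransformed TPM. *MCCA* of leucine breakdown (-0.45) and *NOP58-2* of ribosome assembly (0.29), the called genes among 12 and 14 on their lists, lost their calls when any 1 of 13 and of 5 libraries was left out (adjusted p up to 0.108 for *MCCA*, and a departure under the minimum size for *NOP58-2*). Neither was called over 14 libraries, where *MCCA* departed by -0.41 (adjusted p = 0.0955) and *NOP58-2* by 0.23 (adjusted p = 0.0125), again under the minimum size. No member passed over 16 libraries among 8 flavonoid, 20 lipid breakdown, 9 *ATG8* autophagy, 15 wound and jasmonate, 16 cell cycle, 3 seed coat and 5 embryo genes (limma), where 8 of 76 (10.5%) had an unadjusted p under 0.05, against 2793 (16%) of all genes tested, and their medians lay between -0.11 and 0.07. The embryo markers *ATML1*, *PDF1* and *SCR* departed by -0.04, 0.00 and -0.16. The members of these 7 lists with the smallest p were the flavonoid hydroxylase gene *F3'H* (-0.38), the oil body lipase gene *OBL1* (-0.35), *ATG8G* (0.23), *WRKY18* (0.66), the D-type cyclin gene *CYCD3;3* (-0.42), the seed mucilage gene *MUM2* (0.44) and the root stem cell gene *PLT1* (0.36), with adjusted p = 0.0604 for *WRKY18*, which was called over 14 libraries (0.50, adjusted p = 0.0354).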

How the data were processed

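RNA from 16 libraries of whole *sweet1* seeds was sequenced with paired-end reads after KAPA mRNA library preparation. Trimmomatic 0.38 (trimming), kallisto 0.44.0 (quantification against primary transcripts) and sleuth were used by the authors. The deposited column headed TPM was treated as a score, because its sums differ between libraries, and no source used here gives the scaling step of the authors. No read counts were used, so depth is unknown and the replicate spread alone gives the precision.

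Values were taken as log2(TPM + 0.5), and fold changes on that scale understate changes of low genes. Genes above 0.5 TPM in at least 50% of libraries were fitted with limma 3.58.1 under R 4.3.3 (prior variance with an intensity trend) in 1 model of 4 group means. The departure is the contrast of ABA + Glc minus ABA against Glc minus control. A gene was called at a Benjamini-Hochberg adjusted p under 0.05 over all genes tested and an absolute log2 value of at least 0.289, equal to the 0.2 in natural logs that the study required. The study's filter on CPM was not used here. Additive log2 effects are multiplicative on the TPM scale, so untransformed TPM was fitted as an alternative, together with 14 libraries, each library left out, a replicate block, other pseudocounts (0.1 and 1), other filters (none, or 10 TPM), equal sums, library weights and no trend. The code was tested on simulated data.

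Named genes are, among called genes reaching 10 TPM in a group, the 12 highest and 12 lowest departures, up to 3 called members of each of 26 lists with the largest departures (or, with none called, the member with the smallest p), and genes the paper names. Further list members, and genes so marked in the text, were added after their values were seen. Members and lists were chosen with earlier results of these data known, and lists hold genes the study picked from these libraries, so list counts are a description. Coordinates and promoters come from TAIR10.1 in RefSeq, where 27445 of 27655 gene IDs matched, and the build behind the values was not used for coordinates. Motifs were searched as exact letters on both strands.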

Additional observations from a re-analysis of the deposited data

Results flagged for a closer look

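The departure is a difference between the Glc effects on 2 backgrounds, and it passed the test for 230 genes in the positive and 291 in the negative direction, as described above. Among 352 sets of 4 replicates (88 of the 124 named genes, in 4 groups), 26 held a library far from the other 3, where chance gives about 1 in 20 sets. ABA + Glc replicate 3 was that library in 7 of them, and no other library in more than 6. The remaining named genes were not screened, so these counts do not cover them. One of those, *LEA7*, held 3408 TPM in ABA + Glc replicate 3, against 2124 to 2260 TPM in the other 3.

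In ABA + Glc replicate 3 the values were 8.06 TPM for *HSP101* (3.07 to 3.53 in the other 3), 55.8 TPM for *GA3OX2* (38.6 to 40.5), 7.57 TPM for *LOG1* (5.11 to 5.31) and 261 TPM for *OLEO5* (324 to 335). They were 427 TPM for *PYR1* (296 to 299.6), 47.0 TPM for *ACHT5* (31.1 to 32.6) and 26.1 TPM for *HEC1* (13.5 to 15.5). The other ABA + Glc libraries far from their group held 8.10 TPM for *DRM2* in replicate 4 (6.24 to 6.50), 19.0 TPM for *PYL13* in replicate 1 (17.5 to 17.6) and 194.8 TPM for *RBCS-3B* in replicate 2 (184 to 186). With ABA alone, replicate 4 held 46.5 TPM for *KING2* (49.1 to 49.6) and replicate 1 held 17.3 TPM for *SEI1* (13.7 to 14.1).

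In Glc replicate 4 the values were 23.6 TPM for *AT2G32560* (26.6 to 27.1), 34.7 TPM for *PYL6* (30.5 to 31.1), 326 TPM for *EXPA8* (289 to 295), 38.2 TPM for *STP4* (43.4 to 44.1), 18.3 TPM for *CYCD3;3* (21.0 to 21.3) and 7.84 TPM for *HSD1* (19.4 to 20.8). Glc replicate 2 held 35.7 TPM for *NIA2* (39.7 to 40.1) and 1.51 TPM for *HB7* (1.61 to 1.63). In the control, replicate 4 held 132 TPM for *NIA1* (116 to 118) and 24.3 TPM for *ATG8G* (28.1 to 28.3). Control replicate 1 held 5.52 TPM for *EEL* (7.32 to 7.55) and 63.3 TPM for *WRKY18* (54.3 to 55.2), and control replicate 3 held 60.3 TPM for *OLEO5* (36.2 to 37.9) and 212 TPM for *CRA1* (133 to 141).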

How the results depend on the processing

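Leaving out each library in turn gave 155 to 298 genes with a positive departure, against 230, and 213 to 337 with a negative one, against 291, and both maxima came without ABA + Glc replicate 3. With a weight per library the positive count was 395 and the negative count 435, of which 219 and 286 were among the genes called before. Other settings kept both counts within 1.5 times. With all libraries scaled to equal sums, 189 genes were higher and 287 lower, and the median departure was -0.0123. With the replicate number as a block, 173 genes were higher and 236 lower. Correlations of deviations between libraries with the same number were -0.10 to 0.11 in 24 pairs, and 5 of 16 libraries correlated best with their own number, so the numbers were not taken as pairs. Of 3165 values of named genes under the alternatives, 304 lost the call, 28 gained it and 2833 were called or not called as before. No called gene changed sign, and no call was gained with the other sign. Changes of sign in genes called in neither fit were not counted. Of 689 list counts, 168 moved by over 1.5 times. Without counts, depth cannot be separated from replicate spread, and genes near 0.5 TPM are the least certain.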

Other observations

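The following 4 genes are on none of the lists and were picked with their values known, so they stand for no group. The adenylylsulphate reductase genes *APR2* and *APR3* departed by 0.37 (adjusted p = 0.0119) and 0.58 (adjusted p = 0.00161). Glc alone changed them by -0.62 and -0.62, and ABA + Glc against control by 0.25 and 0.07. *SAT4*, a serine acetyltransferase gene, held 11.4, 9.59, 8.62 and 10.8 TPM with ABA + Glc, against 9.31, 9.32, 8.99 and 10.3 TPM with ABA, and 6.50, 6.06, 6.14 and 7.49 TPM with Glc, against 12.2, 13.8, 10.2 and 10.8 TPM in the control. Its departure was 0.87 ± 0.14 (limma, adjusted p = 0.00206). *AT1G04770* held 134, 124, 138 and 124 TPM with ABA + Glc, against 107, 112, 109 and 107 TPM with ABA, and 105, 94.1, 105 and 94.3 TPM with Glc, against 148, 156, 149 and 140.19 TPM in the control. Every Glc library of *AT1G04770* was below every control library and every ABA + Glc library above every ABA library, and the departure was 0.83 ± 0.07 (adjusted p = 2.35e-05).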
